A study of Mus musculus with 23 samples.

Results

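Of the 21878 genes listed in the sorted neutrophil tables, 8 encode the immune checkpoint and costimulatory ligands described here, and the same 8 were found by symbol among the 55335 genes of the whole-lung table. They were chosen by name and not by their values. *Cd274* and *Pdcd1lg2* encode PD-L1 and PD-L2, the ligands of the inhibitory receptor PD-1. *Cd80* and *Cd86* encode the ligands of CD28 and of its inhibitory counterpart CTLA-4, and *Icosl* encodes the ligand of ICOS. *Cd40* encodes a receptor of the TNF receptor family that CD40 ligand of T cells engages, and it is kept here with the costimulatory molecules. *Lgals9* encodes galectin-9, a ligand of the receptor TIM-3, and *Lgals3* encodes galectin-3, a sugar-binding lectin found both inside and outside cells.

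T cells respond to an antigen only as far as accompanying signals allow. CD28 and ICOS add to the response, whereas PD-1 and CTLA-4 restrain it, and the ligands of these receptors sit mainly on cells that present antigen. Neutrophils are short-lived phagocytes that leave the bone marrow, circulate in the blood and are held for longer in the narrow capillaries of the lung, and in several settings they display PD-L1.

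The data were bulk RNA-Seq of 23 libraries from C57BL/6J background mice, which the study's methods put at 7 to 12 weeks of age. In the tissue comparison, neutrophils were sorted as CD45+CD11b+Ly6G+ cells from perfused lung, peripheral blood (PB) and bone marrow (BM) of WT mice, with 3 libraries of each. The *Piezo1* experiment used neutrophils of WT and *Piezo1*-cKO mice, sorted in the same way from lung and PB, with 2 libraries of each of the 4 groups. The paper's tissue protocol digests lung with collagenase and DNase, and it describes no such digestion for blood or marrow. Before the sort, suspensions of PB and lung, but not BM, went through negative selection. In another assay the authors left the enzymes out of the lung preparation to avoid activating the cells. As described, preparation differed with tissue, and its part in the differences between tissues was not tested. *Piezo1* encodes a mechanically gated cation channel, and in the *Piezo1*-cKO mice *Vav1-iCre*, which is active across blood cells and not only in neutrophils, deleted part of a floxed *Piezo1* gene. The third experiment compared whole lungs of WT mice given an anti-Ly6G antibody, which depletes neutrophils, with whole lungs of isotype controls, with 3 libraries each. Nothing used here says for every library that it came from a separate animal, so the p-values measure the spread between libraries, which may be technical.

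The genes lie on 6 chromosomes of the mouse build GRCm38. *Cd274* (chr19:29362107-29388095) and *Pdcd1lg2* (chr19:29410919-29472927) are neighbours, with 22823 bases and no annotated gene lying wholly between them. *Cd86* (chr16:36568956-36666158) and *Cd80* (chr16:38457430-38495958) share a chromosome at a distance of 1791 kb. *Icosl* is at chr10:78069368-78079525, *Cd40* at chr2:165055614-165071654, *Lgals9* at chr11:78962979-78984924 and *Lgals3* at chr14:47373860-47386167.

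The sequences before the transcription starts of the 3 genes with the largest differences between lung and both other tissues, and of the gene that was highest in BM, are shown because these members differed most across tissues, in opposite directions. Each is the 250 bases upstream of the start in RefSeq (GRCm38.p6), 5′ to 3′ on the strand of the gene, all on the plus strand, with motif matches in capitals:
*Cd274*, chr19:29367188-29367437: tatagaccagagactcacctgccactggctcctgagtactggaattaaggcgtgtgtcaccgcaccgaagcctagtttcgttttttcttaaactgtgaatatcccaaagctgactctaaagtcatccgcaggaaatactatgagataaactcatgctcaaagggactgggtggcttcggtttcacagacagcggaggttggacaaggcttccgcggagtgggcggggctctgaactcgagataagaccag
*Pdcd1lg2*, chr19:29410669-29410918: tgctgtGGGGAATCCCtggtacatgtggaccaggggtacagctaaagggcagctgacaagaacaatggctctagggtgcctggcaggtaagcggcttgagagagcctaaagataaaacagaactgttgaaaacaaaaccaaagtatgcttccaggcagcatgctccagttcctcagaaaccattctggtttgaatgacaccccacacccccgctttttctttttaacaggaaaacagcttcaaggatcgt
*Cd80*, chr16:38458683-38458932: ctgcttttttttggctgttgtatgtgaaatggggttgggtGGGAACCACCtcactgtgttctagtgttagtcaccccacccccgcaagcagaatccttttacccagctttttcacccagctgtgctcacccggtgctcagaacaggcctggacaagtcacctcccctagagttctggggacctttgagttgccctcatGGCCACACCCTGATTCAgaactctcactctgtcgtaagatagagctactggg
*Lgals3*, chr14:47373610-47373859: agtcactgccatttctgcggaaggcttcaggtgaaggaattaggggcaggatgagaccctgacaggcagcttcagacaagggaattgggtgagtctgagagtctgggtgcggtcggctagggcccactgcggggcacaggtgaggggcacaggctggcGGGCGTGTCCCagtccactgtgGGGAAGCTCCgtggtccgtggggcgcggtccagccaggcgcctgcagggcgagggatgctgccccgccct

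For context, 4 motifs were searched on both strands in the 6 ligand genes with a listed sequence, and 3 of them are described here. The NF-kB motif (GGG and CC with 5 bases of any kind between) was matched in *Pdcd1lg2*, *Icosl*, *Cd80*, *Lgals9* and *Lgals3*, but 45.8% of all 32851 promoter windows of the same length also hold it. The AP-1 motif TGANTCA, held by 6.75% of windows, was matched in *Cd80* at 42 bases before the start, next to an NF-kB match. The interferon response motif (GAAA, 2 bases of any kind and GAAA again), held by 2.98% of windows, was matched in *Lgals9* alone, on the opposite strand. These are letter matches in a short window, and the *Cd274* window held no match to any of these motifs. The *Cd274* and *Cd80* windows both lie inside the annotated spans of their genes, which begin further upstream.

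The values are FPKM, sequenced fragments scaled by transcript length and library depth, which allow levels of different genes to be compared per length. Sorted neutrophil libraries held 9621120 to 19330811 reads assigned to genes, and a gene at 0 reads could still have up to 3 reads. FPKM values of most genes were lower in lung: the median log2 difference of all genes tested was -0.54 for lung against PB, -0.70 for lung against BM and -0.12 for PB against BM. Changes of the ligand genes are therefore given as deposited and again after rescaling each library by its median ratio to the gene-wise average. This sets the median of all genes about level. Rescaling moved the DEGs of lung against PB from 587 higher and 1476 lower to 982 and 470, and those of lung against BM from 812 and 2965 to 1580 and 1240. In the PB group, 1 library of the tissue comparison (replicate 3) stood apart from the other PB libraries, and leaving it out changed no DEG call on a ligand gene there. All 8 neutrophil markers were detected in every sorted group, at a summed FPKM of 43700 or more. The dendritic cell list summed to 0.526 to 1.34 FPKM in the tissue comparison, with *Xcr1* at 0 in lung, PB and BM, and the B cell list stayed below 1 FPKM in every sorted library.

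The question of the tissue comparison was how neutrophils differ between lung, blood and marrow. *Cd274*, *Cd80* and *Pdcd1lg2* were higher in lung neutrophils than in PB and BM neutrophils, and all of their lung libraries lay above all PB and BM libraries. *Lgals3* showed the opposite order against BM. Of the 7 ligand genes tested between lung and PB, 3 were DEGs (adjusted p below 0.05 and absolute log2 fold change above 1), all higher in lung, where 27.2% of all genes tested were DEGs, with 7.75% of genes higher in lung and 19.5% lower. Between lung and BM, 3 of 7 were DEGs higher in lung and 1 was lower, against backgrounds of 9.86% and 36% of genes (45.9% in all). Between PB and BM, 2 of 6 were DEGs higher in PB and 1 was lower, against 7.85% and 14.1% of genes (22% in all). By the adjusted p alone, 6 of 7, 7 of 7 and 4 of 6 ligand genes differed in these comparisons, where 85.5%, 92.6% and 73.1% of all genes did. *Pdcd1lg2* passed the filter through its lung libraries alone, so its place among the genes higher in lung was set by the filter, and without 1 lung library it was not tested (2 DEGs of 6 tested for lung against PB). These 3 comparisons share libraries and are not independent of each other.

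**Figure D1:**
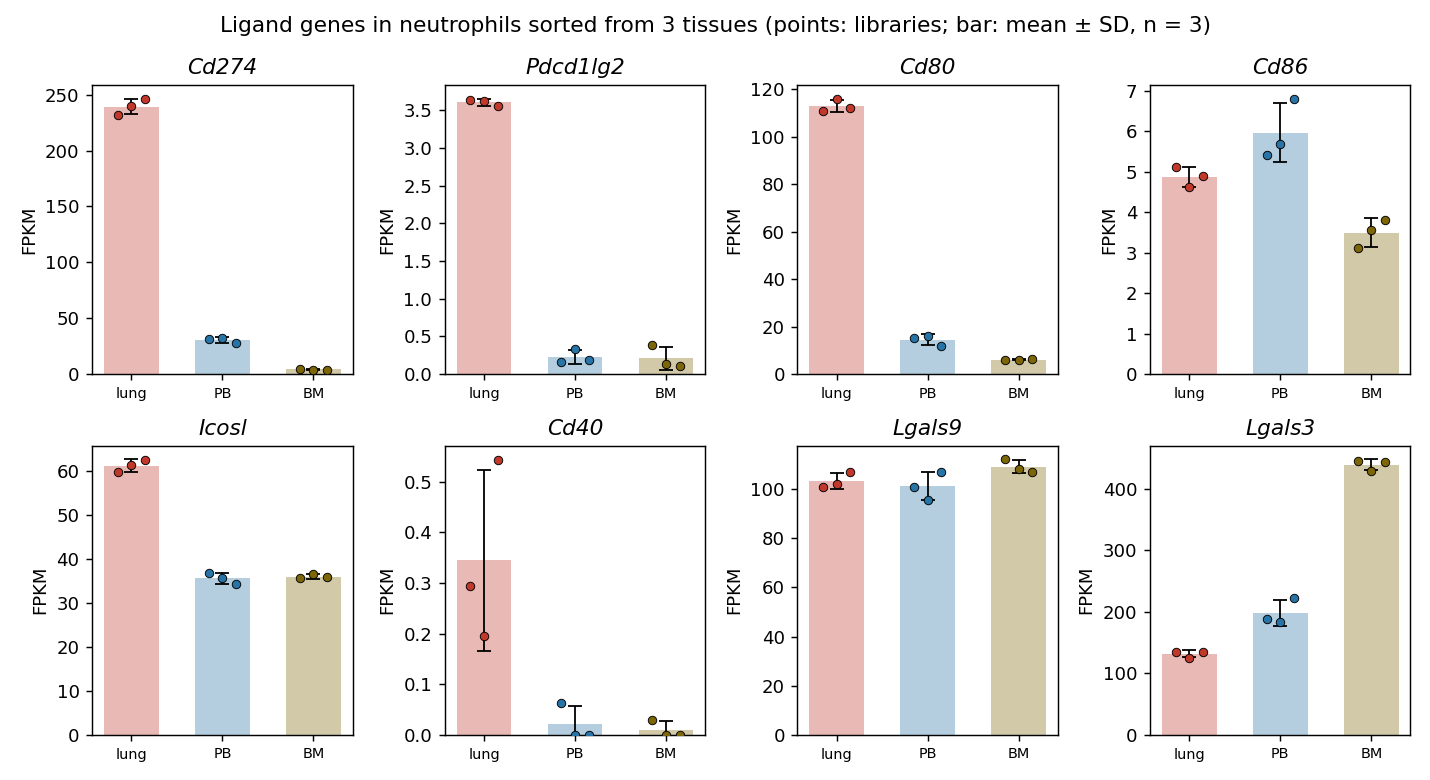
FPKM of the 8 ligand genes (vertical axes, FPKM) in neutrophils sorted from lung, PB and BM, with 1 point per library and bars at the mean ± SD (n = 3). The lung points of *Cd274* (232 to 246 FPKM), *Cd80* and *Pdcd1lg2* lie above all others, the BM points of *Lgals3* (429 to 445 FPKM) lie above all others, and *Cd40* stays below 0.6 FPKM throughout.

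*Cd274*, the gene of PD-L1, measured 232, 240 and 246 FPKM in the 3 lung libraries, 31.8, 32.5 and 27.6 FPKM in PB and 4.41, 3.95 and 4.08 FPKM in BM. The 3 tissues did not overlap, and the level stepped up from BM to PB to lung. Its mean in lung was 7.82 times that in PB and 57.7 times that in BM. On the log2(FPKM + 1) scale, which understates changes of low genes, the difference from PB was 2.93 ± 0.071 (SE, limma adjusted p = 1.45e-08) and 3.58 after rescaling. The difference from BM was 5.55 ± 0.042 (limma adjusted p = 2.26e-14), the 26th highest of 8236 genes, and that between PB and BM was 2.62 ± 0.079 (limma adjusted p = 5.69e-08), the 38th highest of 8237. By mean FPKM, *Cd274* stood at place 272 among the 6884 genes of at least 1 FPKM in lung neutrophils, at place 1761 of 7546 in PB and at place 5761 of 8103 in BM.

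*Pdcd1lg2*, which encodes the other PD-1 ligand and neighbours *Cd274* in the genome, was measured at a far lower level. It had 3.64, 3.62 and 3.55 FPKM in lung (213, 212 and 200 reads), 0.165, 0.334 and 0.189 FPKM in PB (10, 21 and 12 reads) and 0.382, 0.136 and 0.112 FPKM in BM (25, 9 and 7 reads). The lung libraries were apart from the rest, and PB and BM overlapped. The mean in lung was 15.7 times that in PB and 17.2 times that in BM. The limma difference was 1.91 ± 0.084 from PB (adjusted p = 2.74e-07) and 1.93 ± 0.092 from BM (adjusted p = 1.29e-08), and it was 4.58 and 4.88 by edgeR on the reads, which adds no pseudocount of 1 FPKM. Within a library, *Cd274* exceeded *Pdcd1lg2* by 63.9 to 69.2 times in lung.

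*Cd80* measured 111, 116 and 112 FPKM in lung, 15.3, 16.2 and 12 FPKM in PB and 6.03, 5.83 and 6.28 FPKM in BM, with no overlap between tissues. Its mean in lung was 7.80 times that in PB and 18.7 times that in BM. The difference from PB was 2.89 ± 0.10 (limma adjusted p = 9.12e-08), from BM 4.02 ± 0.038 (adjusted p = 1.06e-13), and between PB and BM 1.13 ± 0.11 (adjusted p = 3.00e-05). In these libraries *Cd274* and *Cd80* kept nearly the same ratio in lung (2.08 to 2.19) and PB (2.01 to 2.30). In BM *Cd274* was the lower of the pair (0.651 to 0.732). The likeness of lung and PB did not recur in WT libraries of the *Piezo1* experiment. There the ratio was 1.61 in both lung libraries and 0.832 and 0.784 in PB. In *Piezo1*-cKO it was 1.31 and 1.30 in lung and 1.26 and 1.40 in PB.

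*Cd86*, whose product binds the same receptors as that of *Cd80*, did not share its pattern. It measured 5.11, 4.61 and 4.90 FPKM in lung, 5.41, 5.68 and 6.80 FPKM in PB and 3.11, 3.56 and 3.81 FPKM in BM. Its BM libraries were the lowest, and its lung and PB libraries did not overlap but lay close together. Lung against PB gave -0.24 ± 0.092 (limma adjusted p = 0.0382) as deposited and 0.31 (adjusted p = 0.0255) after rescaling, so its direction there depends on the scaling. As deposited, the adjusted p was 0.057, 0.119 and 0.0829 without lung replicates 1, 2 and 3, 0.0782 without PB replicate 3 (log2 difference -0.16) and 0.0552 with a replicate block. Lung against BM gave 0.39 ± 0.076 (adjusted p = 0.000705) as deposited and 1.05 rescaled, and PB against BM gave 0.63 ± 0.10 (adjusted p = 0.000671). The ratio of *Cd80* to *Cd86* within a library does not depend on that scaling. It was 21.7, 25.1 and 22.9 in lung, 2.83, 2.85 and 1.76 in PB and 1.94, 1.64 and 1.65 in BM, so lung stood apart from both other tissues while PB and BM overlapped.

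*Icosl* was detected at a moderate level in all 3 tissues and was highest in lung. It measured 59.8, 61.4 and 62.6 FPKM in lung, 36.9, 35.7 and 34.4 FPKM in PB and 35.6, 36.6 and 35.9 FPKM in BM. Lung was above and apart from PB and BM, which overlapped each other. The lung mean was 1.72 times that of PB and 1.70 times that of BM, with log2 differences of 0.76 ± 0.052 (limma adjusted p = 2.89e-06) and 0.75 ± 0.031 (adjusted p = 4.49e-09). After rescaling they were 1.41 and 1.55, past the fold threshold. PB and BM did not differ beyond their spread as deposited (-0.014 ± 0.051, limma adjusted p = 0.809), and rescaling gave 0.14 (adjusted p = 0.0318).

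*Cd40* was close to absent from the sorted cells and passed the filter of 1 FPKM in none of their groups. It had 9, 6 and 16 reads in lung, 2, 0 and 0 in PB and 1, 0 and 0 in BM. Summed over libraries, the rate in lung was 16.7 times that in PB, with an exact 95% counting interval of 4.25 to 144, and 34.7 times that in BM, with an interval of 5.78 to 1415. These intervals cover counting error only. Added after the values were seen, edgeR on the reads without a filter gave adjusted p-values of 0.000552 against PB and 7.36e-07 against BM, at levels of at most 0.543 FPKM, where 41.6% and 63.4% of all genes had an adjusted p below 0.05.

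The 2 galectins were among the ligand genes with the highest levels. *Lgals3* measured 135, 125 and 135 FPKM in lung, 189, 183 and 223 FPKM in PB and 445, 429 and 443 FPKM in BM, and the tissues did not overlap. It was lower in lung than in BM by a log2 difference of -1.73 ± 0.031 (limma adjusted p = 9.47e-12), or -0.93 after rescaling. PB against BM gave -1.15 ± 0.080 (adjusted p = 4.67e-06), or -0.99 after rescaling. Lung against PB gave -0.59 ± 0.082 (adjusted p = 0.000213) as deposited, but 0.063 (adjusted p = 0.593) after rescaling, so that no direction can be given for this pair.

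*Lgals9* was nearly flat. It measured 101, 102 and 107 FPKM in lung, 101, 95.6 and 107 FPKM in PB and 112, 108 and 107 FPKM in BM. Lung and PB overlapped (0.029 ± 0.059, limma adjusted p = 0.657), and lung against BM gave -0.078 ± 0.031 (adjusted p = 0.0354), which was 0.111 and 0.102 without lung replicates 1 and 2 and 0.118 and 0.055 without BM replicates 1 and 2. PB against BM gave -0.11 ± 0.056 (adjusted p = 0.118), and 0.00658 without PB replicate 3. Because most genes were lower in lung on this scale, rescaling turned the lung differences into 0.68 and 0.73, so *Lgals9* was higher in lung relative to the bulk of genes and level with the other tissues in FPKM. Within a library, *Lgals3* exceeded *Lgals9* by 1.23 to 1.34 times in lung, 1.87 to 2.09 times in PB and 3.98 to 4.13 times in BM.

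**Figure D2:**
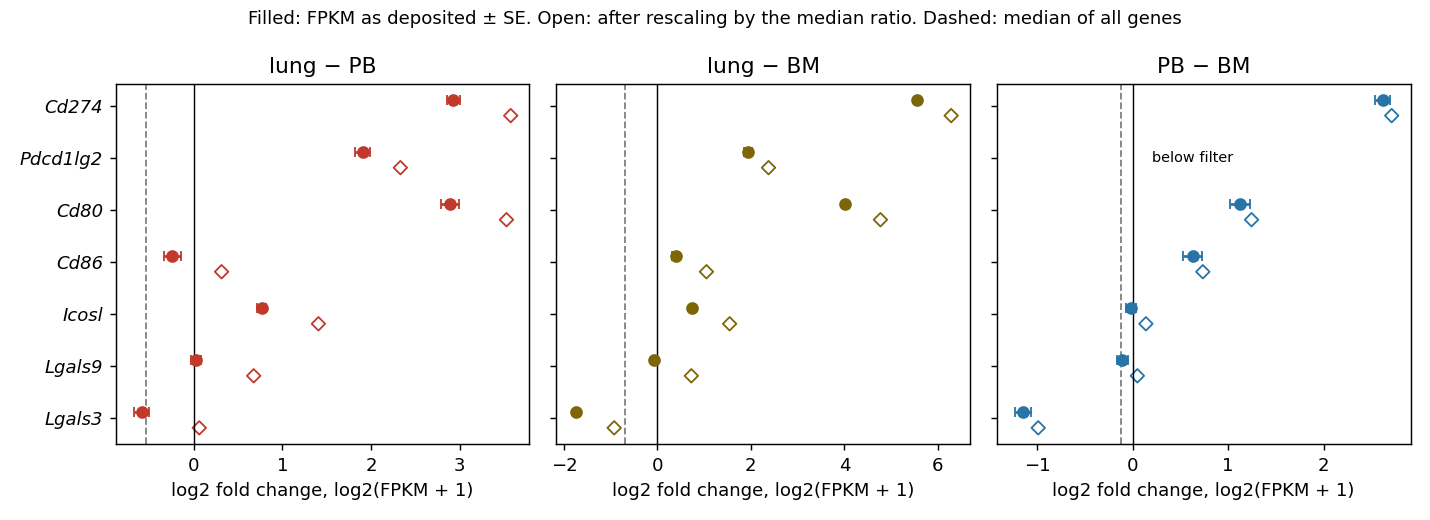
Log2 fold changes on the log2(FPKM + 1) scale (horizontal axes) for the 7 ligand genes that passed the filter, for lung minus PB, lung minus BM and PB minus BM, with filled circles for FPKM as deposited (± SE) and open diamonds for rescaled FPKM. The dashed line is the median of all genes (-0.54, -0.70 and -0.12), and *Cd274*, *Cd80*, *Pdcd1lg2* and *Icosl* lie right of 0 on both scales in both lung comparisons, while *Cd86* and *Lgals3* change side between scales for lung minus PB and *Lgals9* does so for lung minus BM.

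As a share of the summed FPKM of the 8 genes, *Lgals3* made up 73.1% to 73.8% in BM, 49.5% to 54.4% in PB and 19.2% to 20.8% in lung. *Cd274* made up 0.673% to 0.728% in BM, 6.70% to 8.82% in PB and 35.9% to 36.8% in lung, where it was the leading member. *Cd80* made up 0.993% to 1.04% in BM and 16.7% to 17.7% in lung.

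Antigen-presenting cells express these ligands together with MHC class II, which presents antigen to helper T cells, so its genes are given here. The 5 MHC class II genes summed to 173 to 186 FPKM in lung, 10.9 to 16.2 in PB and 8.74 to 10 in BM. Among them *Ciita* was near 0 in all 3 tissues, at means of 0.0105 FPKM in lung, 0.00251 in PB and 0.0166 in BM. *H2-Aa* was at 37.6 to 43.5 FPKM in lung and at most 0.0508 in PB. The dendritic cell list (*Flt3*, *Zbtb46*, *Xcr1*, *Clec9a*, *Cd209a* and *Ccr7*) summed to 0.599 to 0.771 FPKM in lung and 1.09 to 1.34 in BM. *Clec9a* made up most of the BM sum, with means of 1.13 FPKM in BM and 0.359 in lung. Means of *Flt3*, *Zbtb46*, *Ccr7* and *Cd209a* were higher in lung (0.0731, 0.0513, 0.178 and 0.0267 FPKM). In BM they were 0.00915, 0.0193, 0.0977 and 0 FPKM, so all of these lay far below 1 FPKM. The 9 genes for monocytes and macrophages summed to 125 to 128 FPKM in lung and 156 to 171 in PB, with 2 of 9 at 1 FPKM or more in each. The 4 lung epithelial markers summed to 1.52 to 2.82 FPKM in lung, 2.04 to 2.82 in BM and 0.172 to 0.208 in PB. The part of MHC class II-bearing or other lung cells in the levels of *Cd274*, *Cd80* and *Icosl* was not tested. Nor was the part of the enzyme digestion described for lung tissue. In bulk RNA, more cells with a transcript and more transcript per cell cannot be told apart.

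Genes that act beside the ligands were taken from fixed lists. Of the 6 receptor genes of the ligands (*Pdcd1*, *Icos*, *Cd28*, *Ctla4*, *Cd40lg* and *Havcr2*), only *Havcr2* passed the filter in a sorted comparison. *Havcr2* encodes TIM-3, and it was at 5.14 to 5.87 FPKM in lung against 0.339 to 0.533 in PB, a log2 difference of 2.19 ± 0.090 (limma adjusted p = 1.88e-07). *Havcr2*, *Pvr* and *Traf1* entered this test through their lung libraries alone, being under 1 FPKM in PB. Of 16 other ligand genes, 7 were tested between lung and PB. Of these 1 was a DEG higher in lung and 2 were lower, against 7.75% and 19.5% of all genes tested. The higher one was *Pvr*, which encodes the poliovirus receptor, a ligand of TIGIT and DNAM-1, at a mean of 6.49 FPKM in lung and 0.0894 in PB (log2 difference 2.78 ± 0.095, limma adjusted p = 7.72e-08). The lower ones were *Tnfsf14*, which encodes the cytokine LIGHT (62.6 FPKM in lung and 197 in PB, -1.63 ± 0.065), and *Vsir*, which encodes the checkpoint molecule VISTA (102 FPKM in lung and 234 in PB, -1.18 ± 0.073). Both kept this direction after rescaling and by edgeR and DESeq2.

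All 10 genes of the CD40 signalling list were tested between lung and PB. They encode TRAF adaptors, a kinase, inhibitors of apoptosis and NF-kB subunits that CD40 and related receptors use. Of them 5 were DEGs higher in lung and 1 was lower, against 7.75% and 19.5% of all genes tested. Their median log2 difference was 0.77 beside -0.54 for all genes. *Traf1*, an adaptor of TNF receptors, had a mean of 30 FPKM in lung and 0.148 in PB (4.76 ± 0.067, limma adjusted p = 1.04e-09). *Nfkb2* and *Relb*, the subunits of the noncanonical NF-kB pathway, were at 231 and 74.4 FPKM in lung and at 26.1 and 13.1 FPKM in PB. *Birc3*, an inhibitor of apoptosis bound to TRAF proteins, was at 388 FPKM in lung and 75.3 in PB. These genes respond to several TNF family receptors, and the receptor gene *Cd40* itself stayed at or below 16 reads.

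Of 12 genes for interferon signalling and PD-L1 regulation, 11 were tested between lung and PB, with a median of -0.043. Of these 2 were DEGs higher in lung and 3 were lower, against 7.75% and 19.5% of all genes tested. *Hif1a*, the oxygen-sensing transcription factor, was at 80 FPKM in lung and 28.5 in PB (1.46 ± 0.060, limma adjusted p = 1.88e-07). *Irf1*, an interferon-induced transcription factor that acts on the *Cd274* promoter, was lower in lung at 70.7 FPKM against 215 in PB (-1.59 ± 0.050, limma adjusted p = 4.52e-08). *Cmtm6*, whose product keeps PD-L1 at the cell surface, was lower in lung at 127 FPKM against 265 (-1.05 ± 0.066, limma adjusted p = 2.16e-06). Less the median of all genes, this difference of *Cmtm6* was -0.51, and that of *Irf1* was -1.05. In the *Piezo1* experiment *Cmtm6* was no DEG between lung and PB in either genotype (-0.90 in WT and -0.67 in *Piezo1*-cKO). Against BM, which had the lowest *Cd274*, *Irf1* was higher in PB by 1.71 ± 0.049 (limma adjusted p = 4.03e-08). Of the 6 other galectin genes, 2 passed the filter between lung and PB, with 0 DEGs by limma and 1 below an adjusted p of 0.05. The shares of all genes were 27.2% and 85.5%.

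**Figure D3:**
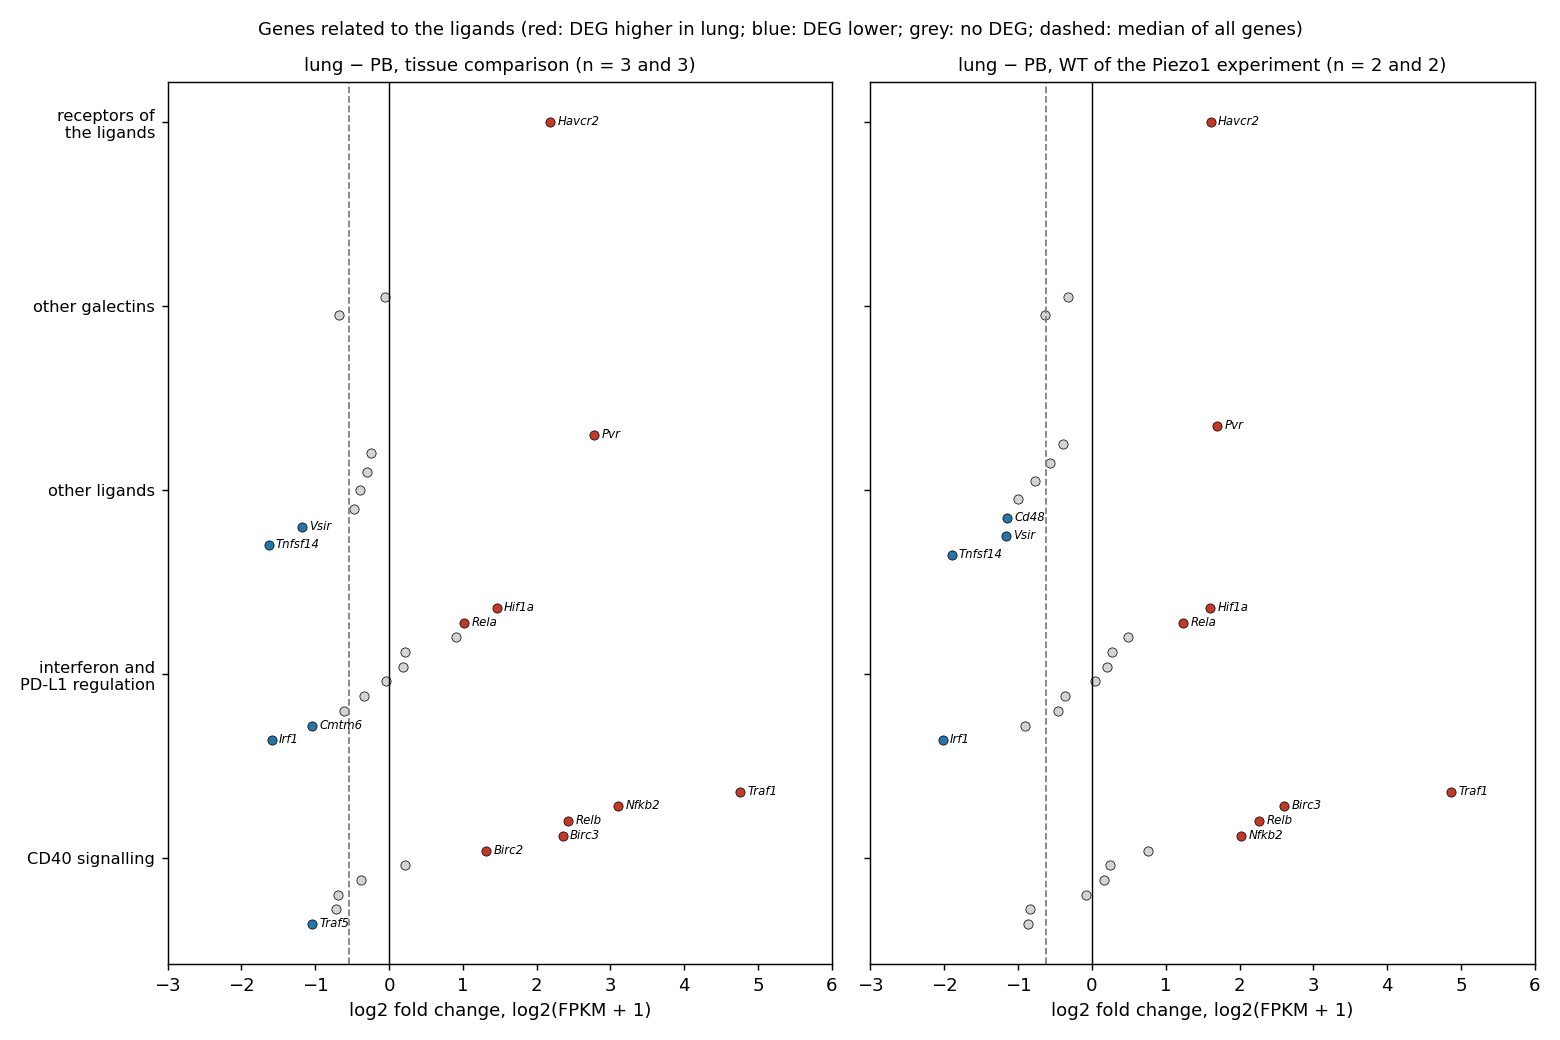
Log2 fold changes (horizontal axes, log2(FPKM + 1) scale) of the genes listed beside the ligands, lung minus PB, in the tissue comparison (left) and in the WT libraries of the *Piezo1* experiment (right), with 1 point per gene reported here that passed the filter, red for DEGs higher in lung, blue for lower and grey for no DEG. *Traf1*, *Nfkb2*, *Relb*, *Birc3*, *Pvr*, *Havcr2* and *Hif1a* are red and *Tnfsf14*, *Vsir* and *Irf1* are blue in both panels. *Traf1*, *Pvr* and *Havcr2* passed the filter through their lung libraries alone in both panels.

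The genes most like each ligand gene were found by Pearson r over the 9 libraries of the tissue comparison, among 5893 genes. These libraries are 3 groups of 3, so r follows mainly the 3 tissue means, and it is given as a description. For *Cd274* they were *Ets2* (r = 0.9998), *Cyp4f18* (0.9997) and *Hspa5* (0.9994), and over the 8 libraries of the *Piezo1* experiment r was 0.992, 0.104 and 0.997. For *Cd80* they were *Clec4e*, *Gadd45b* and *Atg2a* (0.9993 to 0.9997), with 0.988, 0.975 and 0.955 in the *Piezo1* experiment. For *Pdcd1lg2*, *Fosl1* and *Tmed5* kept a high r there (0.938 and 0.948) and *Chd1* a lower one (0.547). For *Icosl*, none of *Cd93*, *Zbtb11* and *Hspa4l* did (-0.151, -0.416 and 0.025). The likeness of *Cd86* (*Morf4l1*, *Dazap2* and *Ugt1a7c*, r of 0.974 to 0.978, and *Ugt1a7c* shares exons with its family) and of *Lgals9* (*Med11*, *Shoc2* and *Cdc37*, 0.901 to 0.941) was looser, and *Lgals3* was nearest to *Rars*, *Arhgdib* and *Actn1* (0.9986 to 0.9991), with 0.529, 0.932 and -0.461 in the *Piezo1* experiment.

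The *Piezo1* experiment gave the difference between lung and PB again, in separate libraries, and asked what the loss of *Piezo1* changes. Its tables were normalised apart from the tissue comparison, so levels are not compared between them. In WT libraries lung exceeded PB as a DEG for 3 of 7 ligand genes tested and none was lower, against 7.5% and 26.5% of genes (34% in all). They were again *Cd274*, *Cd80* and *Pdcd1lg2*, the last of which passed the filter here too through lung alone. In *Piezo1*-cKO libraries these 3 of 7 were DEGs higher in lung and none was lower, against 7.93% and 23% of genes (30.9% in all). By the adjusted p alone, 7 of 7 differed in WT and 6 of 7 in *Piezo1*-cKO, against 89% and 84.5% of genes. For *Lgals9* in WT this was lost without lung WT replicate 2 (adjusted p = 0.0947) and without PB WT replicate 1 (adjusted p = 0.193). MHC class II genes summed to 282 to 293 FPKM in lung WT, 266 to 273 in lung *Piezo1*-cKO and 12.9 to 14.7 in PB here.

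*Piezo1* itself had 8 and 8 reads in the lung WT libraries, 7 and 4 in lung *Piezo1*-cKO, 5 and 5 in PB WT and 3 and 10 in PB *Piezo1*-cKO. At so few reads, and counted over a gene of which only some exons are deleted, it does not check the genotype labels.

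*Cd274* measured 150 and 143 FPKM in lung WT, 129 and 126 in lung *Piezo1*-cKO, 19.4 and 19.3 in PB WT and 17.9 and 18.5 in PB *Piezo1*-cKO. Lung was above PB by a log2 difference of 2.85 ± 0.041 in WT (limma adjusted p = 2.84e-09) and 2.75 ± 0.051 in *Piezo1*-cKO (adjusted p = 8.51e-08). Within lung, both WT libraries were above both *Piezo1*-cKO libraries, by 1.15 times in the mean. The difference was 0.19 ± 0.034 as deposited (limma adjusted p = 0.00345), 0.33 after rescaling and 0.31 by edgeR. In PB it was 0.086 ± 0.063 (limma adjusted p = 0.286). Lung was thus far above PB in both genotypes. The MHC class II genes did not move together between genotypes in lung. *H2-Aa* was lower in *Piezo1*-cKO (46.6 to 50.3 FPKM against 70.4 to 71.7 in WT), and so was *H2-Ab1* (54.9 to 56 against 61.9 to 65). *H2-Eb1* overlapped (39.5 to 42.3 against 40.9 to 43.7), and *Cd74* was higher in *Piezo1*-cKO (125 against 109 to 113). *Ciita* was at most 0.0179 FPKM in lung of either genotype. Summed markers of lung epithelium were also higher in lung WT than in lung *Piezo1*-cKO (5.76 to 6.43 FPKM against 3.26 to 4). So were erythroid markers (4.33 to 4.40 against 0.422 to 1.26) and neutrophil markers. Those of monocytes and macrophages (120 to 122 against 149 to 150), platelets, endothelium and B cells went the other way. The part of MHC class II-bearing or other cells in the lung differences of *Cd274* and *Pdcd1lg2* between genotypes was not tested.

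*Pdcd1lg2* measured 2.52 and 2.16 FPKM in lung WT (128 and 111 reads) and 1.25 and 1.05 in lung *Piezo1*-cKO (63 and 51 reads). The WT mean was 2.03 times the *Piezo1*-cKO mean, with a log2 difference of 0.63 ± 0.10 (limma adjusted p = 0.00263) and 1.13 by edgeR on the reads (adjusted p = 6.64e-06). In PB it had 6 and 8 reads in WT and 0 reads in both *Piezo1*-cKO libraries. Against the floor of 3 reads per library, PB WT was at least 1.89-fold higher than PB *Piezo1*-cKO, and lung *Piezo1*-cKO was at least 15.0-fold higher than PB *Piezo1*-cKO.

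*Cd80* measured 92.8 and 88.7 FPKM in lung WT, 98.6 and 97.0 in lung *Piezo1*-cKO, 23.3 and 24.7 in PB WT and 14.1 and 13.2 in PB *Piezo1*-cKO. In PB the genotypes were well apart, and WT was 1.75 times *Piezo1*-cKO (log2 difference 0.77 ± 0.069, limma adjusted p = 0.00045). In lung the difference was -0.11 ± 0.036 (adjusted p = 0.0405) as deposited and 0.030 (adjusted p = 0.542) after rescaling, so no direction holds there. The adjusted p as deposited was 0.221 without lung WT replicate 2, and 0.14 and 0.08 without lung *Piezo1*-cKO replicates 1 and 2. Lung exceeded PB by 1.88 ± 0.047 in WT and 2.75 ± 0.057 in *Piezo1*-cKO.

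*Cd86* was higher in *Piezo1*-cKO in both tissues. It measured 7.33 and 8.53 FPKM in lung WT, 11.8 and 11.3 in lung *Piezo1*-cKO, 11.1 and 10.8 in PB WT and 23.1 and 21.6 in PB *Piezo1*-cKO, so the genotypes did not overlap in either tissue. The difference of WT from *Piezo1*-cKO was -0.49 ± 0.083 in lung (limma adjusted p = 0.00278) and -0.96 ± 0.069 in PB (adjusted p = 0.000274), with the PB mean of WT at 0.491 times that of *Piezo1*-cKO. Lung against PB was -0.90 ± 0.068 in *Piezo1*-cKO (adjusted p = 2.66e-05) and -0.33 after rescaling, and -0.43 ± 0.083 in WT (adjusted p = 0.0019) but 0.23 after rescaling. The ratio of *Cd80* to *Cd86* within a library was 12.7 and 10.4 in lung WT, 8.38 and 8.57 in lung *Piezo1*-cKO, 2.10 and 2.28 in PB WT and 0.611 and 0.612 in PB *Piezo1*-cKO. In PB neutrophils the more abundant CD28 ligand transcript was therefore *Cd80* in WT and *Cd86* in *Piezo1*-cKO.

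**Figure D4:**
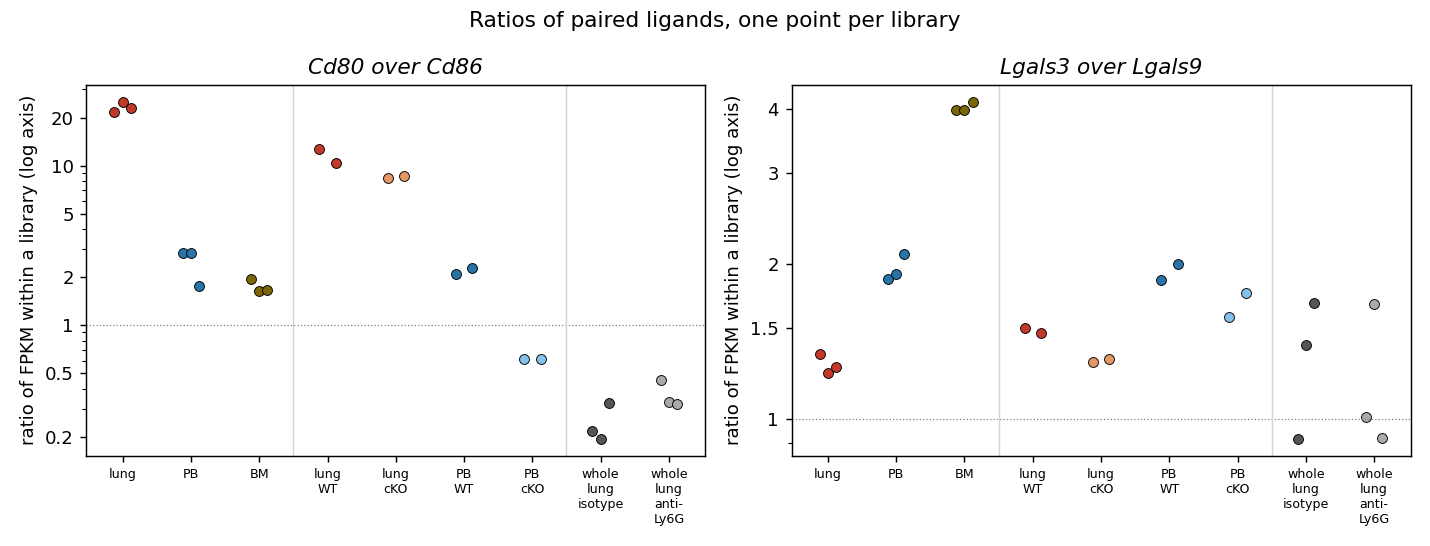
Ratio of FPKM within each library (vertical log axes) of *Cd80* over *Cd86* (left) and *Lgals3* over *Lgals9* (right), with 1 point per library and vertical lines between the 3 experiments. *Cd80* exceeds *Cd86* by 8.38 to 25.1 times in sorted lung neutrophils of either genotype, lies between 1.64 and 2.85 in WT PB and BM, and is below 1 in PB *Piezo1*-cKO and in whole lung.

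*Icosl* measured 14.5 and 15.7 FPKM in lung WT, 15.1 and 15.2 in lung *Piezo1*-cKO, 12.1 and 12.2 in PB WT and 18.7 and 17.0 in PB *Piezo1*-cKO. The genotypes overlapped in lung (-0.0093 ± 0.062, limma adjusted p = 0.909) and were apart in PB, where WT was at 0.679 times *Piezo1*-cKO (-0.52 ± 0.073, adjusted p = 0.00159). Lung against PB was 0.29 ± 0.064 in WT (adjusted p = 0.00334) and -0.22 ± 0.070 in *Piezo1*-cKO (adjusted p = 0.0232), but 0.35 in *Piezo1*-cKO after rescaling, so its direction there depends on the scaling. The *Piezo1*-cKO value had an adjusted p of 0.0853 and 0.0747 without lung *Piezo1*-cKO replicates 1 and 2 and 0.0931 without PB *Piezo1*-cKO replicate 1.

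*Lgals3* measured 287 and 278 FPKM in lung WT, 259 and 263 in lung *Piezo1*-cKO, 385 and 394 in PB WT and 329 and 379 in PB *Piezo1*-cKO. WT exceeded *Piezo1*-cKO in lung by 0.12 ± 0.027 (limma adjusted p = 0.0106), and in PB the difference was 0.14 ± 0.066 (adjusted p = 0.114). The adjusted p was 0.0713 in lung without lung WT replicate 1, and 7.14e-05 in PB without PB *Piezo1*-cKO replicate 2, where the difference was 0.24. Lung against PB was -0.46 ± 0.026 in WT as deposited and 0.26 after rescaling. *Lgals9* measured 189 to 191 FPKM in lung WT, 200 in both lung *Piezo1*-cKO libraries, 196 to 207 in PB WT and 208 to 215 in PB *Piezo1*-cKO. Its difference between genotypes was -0.076 ± 0.026 in lung (adjusted p = 0.0426), which was 0.1 to 0.189 without any 1 of the 4 libraries and became 0.062 (adjusted p = 0.0954) after rescaling, and -0.069 ± 0.046 in PB (adjusted p = 0.244). *Cd40* had 6 and 6 reads in lung WT, 7 and 7 in lung *Piezo1*-cKO, 1 and 4 in PB WT and 0 and 0 in PB *Piezo1*-cKO.

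Counted by the adjusted p alone, 6 of 7 ligand genes differed between genotypes in lung and 3 of 6 in PB, where 50.7% and 49.7% of all genes did. By the fold threshold as well, 0 of 7 and 0 of 6 were DEGs by limma, against 0.995% and 3.65% of genes, and edgeR on the reads called 1 in lung, *Pdcd1lg2*, and 0 in PB. The median log2 difference of all genes was -0.093 in lung and -0.021 in PB. The PB *Piezo1*-cKO libraries also differed in red cell transcripts, since the 3 erythroid markers summed to 776 to 863 FPKM there and 19.1 to 20 in PB WT, and 1 of them had the lowest depth of all, 9621120 reads. The part of these transcripts in the PB differences of *Cd80*, *Cd86* and *Icosl* was not tested.

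**Figure D5:**
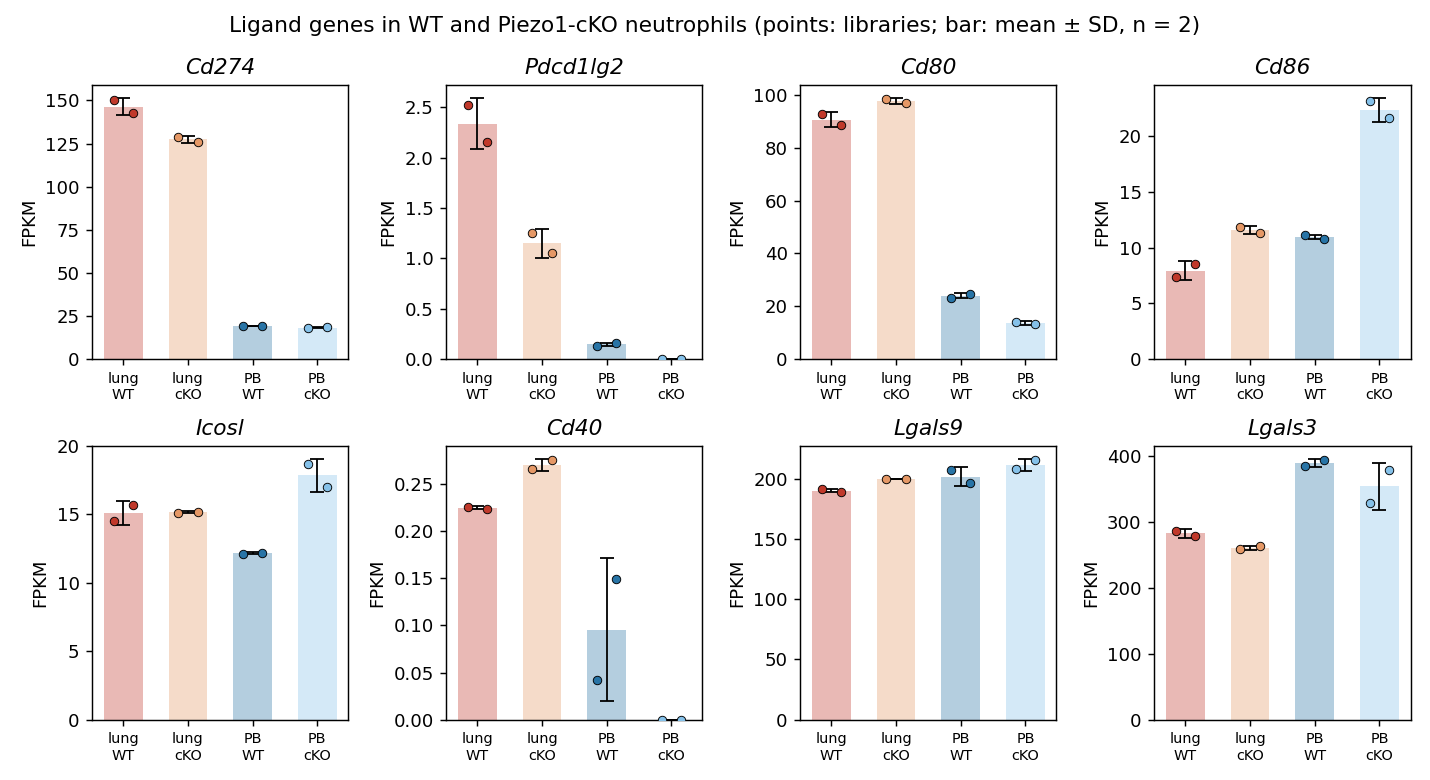
FPKM of the 8 ligand genes (vertical axes, FPKM) in WT and *Piezo1*-cKO neutrophils sorted from lung or PB, with 1 point per library and bars at the mean ± SD (n = 2). *Cd274* and *Pdcd1lg2* are lower in lung *Piezo1*-cKO than in lung WT, *Cd80* is lower in PB *Piezo1*-cKO than in PB WT, and *Cd86* is higher in *Piezo1*-cKO in both tissues, up to 21.6 to 23.1 FPKM in PB.

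The difference of the genotype effects between lung and PB was tested as an interaction. It was called on the adjusted p for 4 of 7 ligand genes, *Cd80*, *Icosl*, *Cd86* and *Pdcd1lg2*, where 48.2% of all genes were. For *Cd274* it was 0.11 ± 0.062 (limma adjusted p = 0.175), and 0.23 after rescaling (adjusted p = 0.0151). For *Lgals3* and *Lgals9* it was -0.026 ± 0.081 and -0.0063 ± 0.050, with adjusted p-values of 0.813 and 0.929. For *Lgals3* it was -0.13 (adjusted p = 0.0365) without PB *Piezo1*-cKO replicate 2, and both values were above 0 after rescaling. *Cd40* was below the filter.

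Among the related genes, *Traf1* had means of 33.9 FPKM in lung WT, 26.1 in lung *Piezo1*-cKO and at most 0.198 in either PB group, and *Birc3* had 369 and 354 FPKM in lung against 59.9 and 59.8 in PB. The lists of CD40 signalling and of interferon and PD-L1 regulation had 0 DEGs between genotypes by limma in lung and in PB, against 0.995% and 3.65% of all genes. By the adjusted p alone, 2 of 10 and 9 of 11 of their genes differed in lung, and 4 of 9 and 5 of 11 in PB, beside 50.7% and 49.7% of all genes. Of the other ligands, *Tnfsf9*, which encodes 4-1BB ligand, was a DEG in PB with means of 8.59 FPKM in WT and 3.11 in *Piezo1*-cKO (1.22 ± 0.15, limma adjusted p = 0.00106), and so was *Tnfrsf14*, which encodes the LIGHT and BTLA partner HVEM, with 4.73 and 1.45 FPKM (1.21 ± 0.14, adjusted p = 0.000791). In lung, *Cd48*, a ligand of CD244, was a DEG at 0.153 FPKM in WT and 1.87 in *Piezo1*-cKO (-1.30 ± 0.15, limma adjusted p = 0.00074), from 2 and 5 reads in WT and 31 and 52 in *Piezo1*-cKO, having passed the filter through *Piezo1*-cKO alone.

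Whole lung after neutrophil depletion addressed how much of the lung's transcript depends on neutrophils. No ligand gene was called, and neither was any neutrophil marker tested. The neutrophil marker list summed to 213 to 270 FPKM in isotype controls and 47.6 to 132 FPKM after depletion, though *Ly6g* itself was at no more than 0.577 FPKM in any whole lung. By limma, 0 of 6 ligand genes tested passed an adjusted p of 0.05, and 1 of all 13990 genes did, or 0.00715%. None of the 7 neutrophil markers tested passed it, at a median log2 difference of -1.33. The test missed the loss of these markers, so it cannot decide whether ligand genes changed. At an unadjusted p below 0.05 there were 1 ligand gene and 1570 genes in all (11.2%).

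*Cd274* measured 7.74, 5.79 and 7.01 FPKM in control lungs and 6.35, 5.71 and 4.91 FPKM in depleted lungs, with overlap (-0.24 ± 0.13, limma adjusted p = 0.542). *Cd40*, which was near 0 in sorted neutrophils, measured 2.96, 2.37 and 2.18 FPKM in controls and 1.92, 1.72 and 1.43 FPKM in depleted lungs. All 3 depleted libraries were below the controls (-0.38 ± 0.13, unadjusted p = 0.0185, limma adjusted p = 0.334). The 5 B cell markers, of cells that carry CD40, moved the same way, from 83.1 to 89.2 FPKM in controls to 32.4 to 69.9 FPKM in depleted lungs, and their part in the *Cd40* values was not tested. *Cd80* (0.412 to 0.634 FPKM in controls and 0.597 to 0.830 in depleted lungs) and *Pdcd1lg2* (0.271 to 0.698 over all 6) were below the filter.

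*Icosl* measured 4.95 to 5.56 FPKM in control lungs and 4.23 to 5.28 in depleted lungs, *Cd86* 1.96 to 2.16 and 1.82 to 2.11, *Lgals9* 41.7 to 53.3 and 48.1 to 50.1, and *Lgals3* 48.9 to 70.1 and 44.4 to 80.2. These groups overlapped in all 4 genes, with log2 differences from -0.12 to 0.073. In whole lung *Cd86* exceeded *Cd80* in all 6 libraries, with ratios of *Cd80* to *Cd86* of 0.194 to 0.456, the reverse of sorted lung neutrophils.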

How the data were processed

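Poly(A) RNA was sequenced as paired-end reads of 150 bp. The authors trimmed reads with fastp, aligned them to mm10 with HISAT2, counted them with HTSeq and deposited FPKM values per gene; the versions are not given in the sources used here. The deposited tables also hold signal columns, the authors' group means of normalised reads, which served only to check the recovered reads. Their fold change, p and q columns hold the authors' own DESeq2 comparisons and were not used.

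Ligand genes were matched by gene identifier in the sorted neutrophil tables and by symbol in the whole-lung table. The members and gene lists were chosen with earlier results of these data known. Genes with at least 1 FPKM in 3 libraries (2 in the *Piezo1* experiment) were tested on log2(FPKM + 1) with limma 3.58.1 (R 4.3.3) with trend and robust options, and p-values were adjusted over all genes by Benjamini-Hochberg. A DEG needed an adjusted p below 0.05 together with a log2 fold change beyond 1 in either direction (0.5 in whole lung), and interactions were called on the adjusted p alone. The interaction is WT minus *Piezo1*-cKO in lung, minus the same in PB.

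Whole reads were recovered from the FPKM values of the sorted libraries (99.93% to 99.96% of values within 0.02 of a whole number) for edgeR 4.0.16 and DESeq2 1.42.0, used as alternatives only. Other alternatives were a pseudocount of 0.1, no filter, rescaled FPKM, a replicate block and leaving out each library. Depth was 9621120 to 19330811 recovered reads per sorted library, and the depth of the whole-lung libraries is unknown here. On simulated data, the test recovered 100% of 200 genes changed by a log2 of 2 in each of 7 sorted comparisons. In whole lung it recovered 99% with 7 false calls. The changed genes were drawn from those well above the filter of 1 FPKM, and sorted libraries were given a fixed spread. The simulation therefore does not cover smaller changes or genes near the floor. All 8 members could be named in every comparison. Other genes were named as the 4 or fewer with the largest called changes in a list, as markers, or as the 3 most like a member by Pearson r. For 1 gene of the interferon and PD-L1 regulation list, which counts in the list's totals, the values are not reported here.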

Additional observations from a re-analysis of the deposited data

Results flagged for a closer look

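For 4 ligand genes, the effect of genotype (WT minus *Piezo1*-cKO) differed between lung and PB by a test of the difference itself, the limma interaction term on 2 libraries per group, as it did for 48.2% of all genes tested. For *Cd80* it was -0.8743 on the log2(FPKM + 1) scale (adjusted p = 8.75e-05), from a genotype effect of -0.11 in lung and 0.77 in PB. For *Icosl* it was 0.5121 (adjusted p = 0.00231), from -0.0093 in lung and -0.52 in PB. For *Cd86* it was 0.4712 (adjusted p = 0.00736), from -0.49 in lung and -0.96 in PB, so the genotypes differed in one direction in both tissues and by more in PB. The 4 libraries of PB also differed by genotype in red cell transcripts, whose part was not tested.

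For *Pdcd1lg2* the interaction was 0.4399 (adjusted p = 0.0232), and its direction depends on the scale. PB *Piezo1*-cKO had 0 reads in both libraries. It was -4.38 by edgeR on the reads (adjusted p = 0.0166), a fitted value against a group at 0 that is no bound. Leaving out 1 library ended the call in 4 cases, with adjusted p-values of 0.0816 without lung WT replicate 1, 0.0788 without lung *Piezo1*-cKO replicate 2, 0.0691 without PB WT replicate 1 and 0.0555 without PB WT replicate 2.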

How the results depend on the processing

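Counts of ligand genes called moved by over 1.5 times in 3 comparisons. For lung against PB, edgeR without a filter, added after the data were seen, gave 5 (3 by limma). For genotype in lung, edgeR, DESeq2 and edgeR without a filter each gave 1 (0 by limma), which was *Pdcd1lg2*. For genotype in PB, a pseudocount of 0.1 and DESeq2 each gave 1, edgeR without a filter gave 2, and leaving out 1 library gave 0 to 1, with the 1 reached without PB *Piezo1*-cKO replicate 2 (0 by limma). The other counts stayed within 1.5 times under all alternatives.

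Direction reversed for 13 single values, counting those with an adjusted p below 0.05 before or after. Under rescaled FPKM, edgeR, DESeq2 and edgeR without a filter, in that order, lung against PB of *Cd86* gave 0.3147, 0.3319, 0.3507 and 0.2776, and lung against BM of *Lgals9* gave 0.7259, 0.7217, 0.7711 and 0.6695. Genotype in lung gave 0.0297, 0.0056, 0.0037 and 0.0079 for *Cd80* and 0.0619, 0.0377, 0.0356 and 0.0400 for *Lgals9*. Lung against PB in WT libraries of the *Piezo1* experiment gave 0.2315, 0.2512, 0.2759 and 0.2200 for *Cd86*, 0.2640, 0.2551, 0.2806 and 0.2236 for *Lgals3* and 0.6386, 0.6329, 0.6577 and 0.6015 for *Lgals9*. In *Piezo1*-cKO libraries it gave 0.1648, 0.1755, 0.2083 and 0.1382 for *Lgals3*, 0.5206, 0.5389, 0.5706 and 0.5015 for *Lgals9* and 0.3480, 0.3909, 0.4200 and 0.3533 for *Icosl*. Lung against PB of *Lgals3* gave 0.0630, 0.0285 and 0.0472 under the first 3 of these, and PB against BM of *Icosl* gave 0.1388 under rescaling. The *Pdcd1lg2* interaction gave -0.3236 with a pseudocount of 0.1, -4.3799 by edgeR, -3.8405 by DESeq2 and -4.3849 by edgeR without a filter. As deposited, the median of all genes was lower in lung than in PB and BM, and these alternatives set it level. For the other reversals the cause was not tested.

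Of the values of single ligand genes under alternatives other than leaving out a library, 377 stayed on the same side of the call threshold (19 of them with a changed sign but an adjusted p above 0.05 both before and after), 25 newly passed it, 5 no longer passed it and 48 reversed. The 25 include *Icosl* in lung, and the 5 include *Lgals3* against BM at -0.93. Libraries of the same replicate number did not deviate together (correlations of deviations from -0.0836 to 0.0752), which does not show whether they shared a mouse. With 2 libraries per group, both replicates of the *Piezo1* experiment give the same correlation. A replicate block changed none of the counts of called ligand genes. These were 3 for lung against PB, 4 for lung against BM, 3 for PB against BM, 0 for genotype in either tissue and 4 for the interaction. Values of ligand genes under 1 FPKM rest on few reads, and depth limits what can be said of *Cd40* in sorted cells and of *Pdcd1lg2* in PB and BM.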

Other observations

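Against BM, 5 of 10 genes of the CD40 signalling list were DEGs higher in lung and none was lower, where 9.86% and 36% of all genes were. Their median log2 difference was 0.74 beside -0.70 for all genes. *Traf1*, which entered this test through its lung libraries alone, gave 4.83, *Nfkb2* 3.94, *Relb* 3.46 and *Birc3* 3.03. Of 11 genes tested for interferon signalling and PD-L1 regulation, 4 were DEGs higher in lung than in BM and none was lower, beside the same 9.86% and 36%. They were *Hif1a* at 1.93, *Rela* at 1.72, *Jak2*, a kinase of cytokine receptors, at 1.55 and *Ifngr1*, a chain of the interferon gamma receptor, at 1.13. Of the other ligand genes, *Pvr* was higher in lung than in BM by 2.82, having entered this test through its lung libraries alone. *Ceacam1*, which encodes a TIM-3 partner, was lower by a log2 difference of -2.80, *Vsir* by -1.62 and *Tnfrsf14* by -1.19. Less the median of all genes, these differences of *Ceacam1*, *Vsir* and *Tnfrsf14* were -2.09, -0.91 and -0.49.

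Between PB and BM, *Irf1* (1.71), *Ifngr1* (1.17), *Relb* (1.04), *Tnfsf14* (1.72) and *Tnfsf9* (1.37) were DEGs higher in PB, and *Ceacam1* (-2.32) and *Lgals4* (-1.19) were lower. *Tnfsf9* was at most 0.507 FPKM in BM and entered this test through its PB libraries alone, so its direction was set by the filter. In the interaction of genotype and tissue, 3 of 10 genes of the CD40 signalling list, 8 of 11 of the interferon and PD-L1 regulation list and 6 of 8 other ligand genes passed an adjusted p of 0.05 by limma, beside 48.2% of all genes.

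Of the 5 T cell markers, *Cd3d* alone reached a mean of 1 FPKM in the tissue comparison, and the list summed to 2.33 to 2.57 FPKM in lung, 3.59 to 4.73 in PB and 5.21 to 6.10 in BM. Platelet markers summed to 1.09 to 1.42 FPKM in lung and at most 0.0359 in PB, and to 0.138 to 0.474 in BM. The endothelial list summed to 2.20 to 2.21 FPKM in lung, 2.57 to 2.91 in PB and 2.26 to 2.94 in BM.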
